A study of Mus musculus with 4 samples.

Results

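Elastic fibres give a tissue its recoil. Tropoelastin is secreted by fibroblasts, aligned on a scaffold of fibrillin microfibrils and crosslinked by lysyl oxidases, while fibulins, microfibril-associated glycoproteins and latent TGFβ binding proteins bridge the microfibril, the elastin core and the neighbouring basement membrane. In the gut wall this network is made by stromal cells and surrounds vessels, muscle and the villus core. The 9 genes described here are parts of that network or proteins that bind to it, taken by name from a table of 3891 genes: Eln (elastin), Fbn2 (fibrillin), Mfap4 and Ltbp2 (microfibril-associated proteins), Fbln1 and Fbln7 (fibulins), Adamtsl2 (a secreted protein without protease activity that binds microfibrils), Emid1 (a secreted protein with an EMI domain and collagen-like repeats) and Mgp (matrix Gla protein, a vitamin K-dependent inhibitor of calcification). All 9 were present in the table, and all 9 passed the filter on low values.

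The cells were live, CD45neg, EpCAMneg, CD31neg, gp38+ cells of the small intestine, sorted from wild type male C57Bl/6 mice of 8 weeks. gp38, or podoplanin, is a surface protein shared by most intestinal fibroblasts. The study compared fibroblast types of untreated tissue, so there was no treated group. The cells came from 10X Genomics, with 2 libraries of 2547 and 14344 cells, and from Smartseq2, with 2 plates of 360 and 379 cells, and nothing states how many mice gave each library.

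The 10X cells were grouped by unique molecular identifiers (UMIs, each standing for 1 captured mRNA molecule) of 13 genes other than the 9. Cells with Sox6, a transcription factor of the subepithelial sheath under the gut epithelium that includes telocytes, were taken first. They were split into cells with Wif1 (114 and 817 in libraries 1 and 2), cells with Adamts18, which marks telocytes of the villus tip (18 and 174), and cells with neither (153 and 1704). A further 4 cells of library 2 held both and were left out. Of the cells in each Sox6 group and library, 81.5% to 92.5% also met the rule of another group, as Sox6 was taken first. The remaining cells were mesothelial-like where they held at least 3 of Inmt, Penk, Vit and Scara5 (331 and 1107 cells), then Fibin type with at least 3 of Chodl, Dner, Thbs2 and Ptn (100 and 697), then the Grem1 group (1021 and 4837) and the Lpl group (611 and 3699), leaving 199 and 1305 cells in no group.

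Library 1 had a median of 8757 UMIs per cell and library 2 of 6874, and 7 cell barcodes occurred in both. Of the subepithelial markers that the rule did not use, 5 of 7 (F3, Bmp7, Bmp5, Foxl1 and Vegfa) were higher in each Sox6 group than in each other group in both libraries, while Pdgfra and Tnc were about as high in the Fibin type. Among the 3 Sox6 groups, all 4 further markers of the Wif1 side were highest in the Wif1 cells, and Lama5 and Npnt in the Adamts18 cells. For the crypt label of the Grem1 group, 3 of 3 markers were higher than in the Lpl group. For the villus label of the Lpl group only Ccl11, 1 of 4 markers, was higher than in the Grem1 group in both libraries, so that group is named by its gene. The mesothelial-like and Fibin type groups could each be checked with a single further gene (Wt1 and Fibin), which was highest there among the 4 groups without Sox6. The sort removes immune cells, and the summed level of 10 immune markers was at most 0.367 UMIs per 10,000 in every group. Cells with at least 3 markers of smooth muscle made up 44 of the 114 and 216 of the 817 Wif1 cells, through Myh11, Des and Synpo2, while Cnn1 and Lmod1 were near 0 in these cells. The 7 smooth muscle genes summed to 5.77 to 9.37 UMIs per 10,000 in the Sox6 groups and 0.314 to 2.49 in the others. Their part in the results was not tested beyond leaving out cells with at least 3 markers of another type. All 9 genes then still passed in Sox6 against other fibroblasts. Fbln7 between the cells with neither gene and the Wif1 cells no longer passed, nor did Mgp in the mesothelial-like group against the Grem1 and Lpl groups. The 4 markers of interstitial cells of Cajal summed to 2.22 to 4.45 in the Sox6 groups, 1.37 and 3.68 in the Fibin type and 0.369 to 0.840 in the rest. Most of the Sox6 sum was Etv1, at 1.79 to 4.35 in the Sox6 groups, while Kit, a defining marker, was at most 0.0301 there and 0 in 3 of the 6 values. The 4 pericyte markers summed to 8.57 and 9.64 in all Sox6 cells and 13.8 and 17.6 in the other 4 groups. The part of both lists in the results was not tested.

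Reference promoter windows could be matched for 5 of the 9 genes. The windows are shown for the genes that were higher in Sox6 cells and had a match, Emid1, Ltbp2 and Fbln7. That of Fbln1, the strongest of those that were lower, is shown too. Each runs 5′ to 3′ on the gene's strand from 250 bases before to 50 bases after the annotated start, from RefSeq on GRCm38.p6, and holds the promoter and the first bases of the transcript. Capitals mark matches, on either strand, to any of 4 short motifs. The TATA box was searched as TATAAA and the GC box as GGGCGG. The core bound by SOX proteins was searched as AACAAT and the forkhead core as TGTTTAC. No capitals of different motifs overlapped. The windows were chr11:5152181-5152480 for Emid1 and chr12:84876442-84876741 for Ltbp2, both on the minus strand, and chr2:128863682-128863981 for Fbln7 and chr15:85205699-85205998 for Fbln1, both on the plus strand.
Emid1: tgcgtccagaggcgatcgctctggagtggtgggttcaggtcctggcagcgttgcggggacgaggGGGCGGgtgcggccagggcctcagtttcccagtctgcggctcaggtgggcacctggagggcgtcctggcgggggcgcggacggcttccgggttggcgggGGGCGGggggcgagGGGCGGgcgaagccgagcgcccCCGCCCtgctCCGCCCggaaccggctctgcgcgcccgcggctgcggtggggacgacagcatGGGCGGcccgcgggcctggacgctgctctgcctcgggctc
Ltbp2: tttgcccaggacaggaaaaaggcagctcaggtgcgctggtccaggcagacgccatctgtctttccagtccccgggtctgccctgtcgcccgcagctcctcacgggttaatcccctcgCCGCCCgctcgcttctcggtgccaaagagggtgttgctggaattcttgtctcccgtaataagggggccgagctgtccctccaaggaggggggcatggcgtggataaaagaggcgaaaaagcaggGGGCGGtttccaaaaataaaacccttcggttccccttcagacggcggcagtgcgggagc
Fbln7: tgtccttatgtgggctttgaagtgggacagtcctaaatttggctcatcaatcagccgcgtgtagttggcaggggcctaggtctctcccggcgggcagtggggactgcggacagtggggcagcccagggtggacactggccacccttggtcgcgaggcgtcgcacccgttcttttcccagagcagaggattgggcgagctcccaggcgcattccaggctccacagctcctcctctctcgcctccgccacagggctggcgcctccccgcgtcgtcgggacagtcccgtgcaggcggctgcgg
Fbln1: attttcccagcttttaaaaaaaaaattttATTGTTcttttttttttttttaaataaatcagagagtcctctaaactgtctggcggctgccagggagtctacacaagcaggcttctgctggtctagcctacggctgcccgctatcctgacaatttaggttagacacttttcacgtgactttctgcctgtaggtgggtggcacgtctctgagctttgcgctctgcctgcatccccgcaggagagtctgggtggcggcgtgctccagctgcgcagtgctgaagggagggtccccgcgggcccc

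The Emid1 window shown held 6 GC boxes with a GC content of 77.3%, against a median of 52.7% over all 32851 windows. A second annotated start of Emid1, at chr11:5150025-5150324, had no match and a GC content of 62.3%. Ltbp2 held 2 GC boxes and Fbln7 no match. The matched Adamtsl2 window, not shown, held 1 TATA box and 1 GC box. The GC box occurs in 35.7% of all windows. The SOX letters occur in 10.7% of windows, the TATA letters in 13.6% and the forkhead letters in 3.65%. Among the matched windows the SOX letters were found in the Fbln1 window shown. The second Fbln1 window, at chr15:85205758-85206057, held 2 GC boxes and no SOX letters. A window without a match says nothing about a factor's binding elsewhere.

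Fbn2, Ltbp2, Fbln7 and Emid1 were higher in Sox6 cells than in the other fibroblasts, and Eln, Fbln1, Mfap4, Adamtsl2 and Mgp were lower. The question was where each part of the elastic fibre is transcribed relative to the subepithelial sheath. Means of the natural log value per library and group were compared with limma, 3 Sox6 groups against 4 other groups, with the library as a block. All 9 genes passed an adjusted p of 0.05, in a comparison in which 76.4% of the 1969 genes tested passed (42.1% higher and 34.3% lower in Sox6 cells), so a call by itself sets a gene little apart. The median absolute difference on the natural log scale was 1.06 over the 9 genes and 0.070 over all genes tested. The 9 genes were chosen with earlier results of these data known, so this larger median is a description only.

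**Figure D1:**
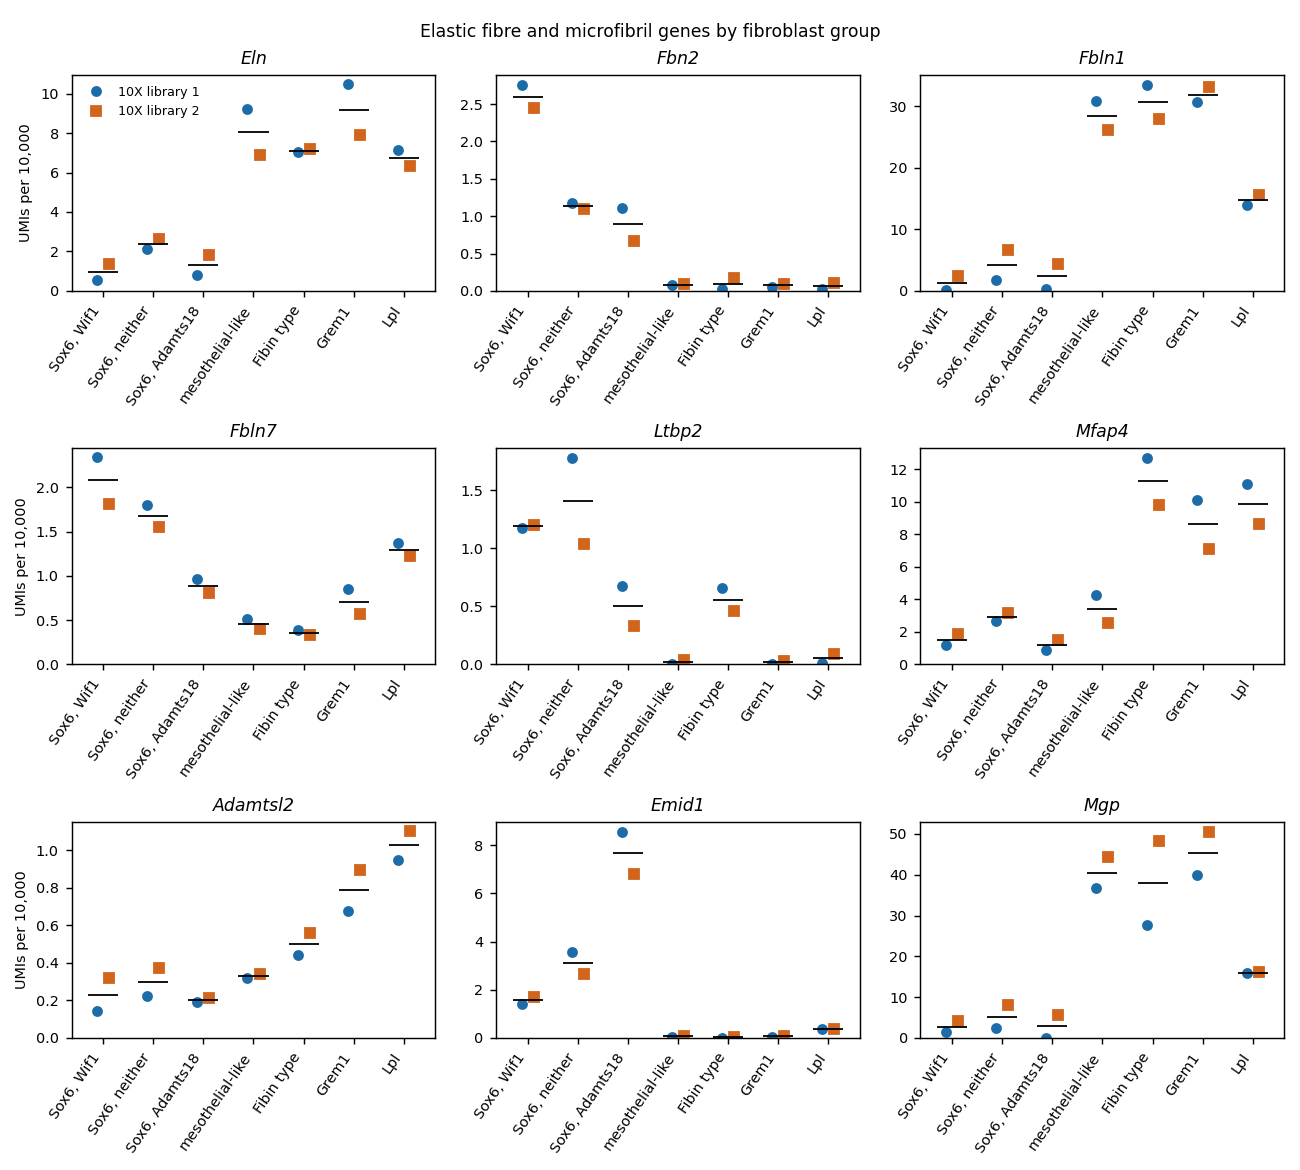
Level of each of the 9 genes (UMIs per 10,000 UMIs, linear axes from 0, a separate scale for each gene) in the 7 groups of 10X cells. Circles are library 1, squares library 2 and lines their mean. Fbn2, Ltbp2 and Emid1 sit near 0 in most groups without Sox6, while Fbln1 and Mgp lie highest in the Grem1, mesothelial-like and Fibin type groups.

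Emid1 (chromosome 11 of GRCm38, 5106265 to 5152257) was highest in the Adamts18 cells. Its levels in libraries 1 and 2 were 8.55 and 6.80 UMIs per 10,000 in Adamts18 cells, 3.57 and 2.67 in Sox6 cells with neither gene and 1.42 and 1.70 in Wif1 cells. The Lpl group followed at 0.364 and 0.374, and the mesothelial-like, Grem1 and Fibin type groups lay between 0 and 0.086. Emid1 thus divided the Sox6 cells among themselves as well as from the rest. The first 5 groups in this order did not overlap between neighbours over the 2 libraries. In the Fibin type of library 1 no Emid1 UMI was found in 100 cells, which allows a share of cells with a UMI of up to 3% (3 counts of the total). The mean natural log value was 1.22 ± 0.07 higher in Sox6 cells than in the others (SD, n = 2; limma adjusted p = 2.03e-09), or 40.7-fold and 25.5-fold on the linear scale in libraries 1 and 2.

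Emid1 was found in 18 of 18 and in 98.9% of the Adamts18 cells of libraries 1 and 2 (95% exact binomial intervals 81.5 to 100% and 95.9 to 99.9%, counting error only). In library 2 it was found in 68.8% of Wif1 cells and 66.1% of cells with neither gene. When each cell was thinned to 2000 UMIs, the shares in library 2 were 72.3%, 29.1% and 37.2%. Immune-like cells outside the groups, which should lack the gene, gave 4.17% of 48 cells at full depth (median 4219 UMIs) and 2.50% of 40 cells when thinned.

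Fbn2 (chromosome 18, 58008623 to 58210487) encodes the fibrillin laid down mainly in development. It was highest in Wif1 cells, at 2.76 and 2.44 UMIs per 10,000, and lower in cells with neither gene, at 1.18 and 1.10, and in Adamts18 cells, at 1.11 and 0.668. No other group exceeded 0.168. The ranges of the 2 libraries separated Wif1 cells from the next group and all Sox6 groups from all other groups, but the cells with neither gene and the Adamts18 cells overlapped. The natural log difference of Sox6 from other fibroblasts was 0.64 ± 0.09 (SD, n = 2; limma adjusted p = 6.86e-08), 38.6-fold in library 1 and 12.4-fold in library 2. Fbn2 was found in 83.3% and 78.1% of Wif1 cells (intervals 75.2 to 89.7% and 75.1 to 80.9%) and, with each cell thinned to 2000 UMIs, in 43.9% and 35.5%. It was found in 0 of 48 immune-like cells of library 2 outside the groups. This allows a share of cells with a UMI of up to 6.25% (3 counts of the total). Their median was 4219 UMIs per cell, against 9682 in the Wif1 cells of that library. Of all 81 immune-like cells of library 2, those in groups included, 3.70% had a UMI of Fbn2.

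Ltbp2 (chromosome 12, 84783212 to 84876532), which binds fibrillin microfibrils but not latent TGFβ, was found in Sox6 cells and the Fibin type. Its levels in libraries 1 and 2 were 1.78 and 1.04 UMIs per 10,000 in cells with neither gene, 1.18 and 1.20 in Wif1 cells and 0.676 and 0.327 in Adamts18 cells. The Fibin type held 0.660 and 0.456, and the mesothelial-like, Grem1 and Lpl groups at most 0.087. The Wif1 cells and the cells with neither gene overlapped, as did the Fibin type and the Adamts18 cells. Sox6 cells were higher by 0.42 ± 0.12 (natural log scale, SD, n = 2; limma adjusted p = 4.05e-06), 7.05-fold and 5.63-fold.

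Fbln7 (chromosome 2, 128862981 to 128897034), a short fibulin that adheres to cells, differed least among the genes that were higher. It fell in order from Wif1 cells (2.34 and 1.82 UMIs per 10,000) to cells with neither gene (1.80 and 1.55), the Lpl group (1.37 and 1.22), Adamts18 cells (0.966 and 0.809), the Grem1 group (0.848 and 0.569), the mesothelial-like group (0.508 and 0.401) and the Fibin type (0.384 and 0.335). Of these neighbours, only the Adamts18 cells and the Grem1 group overlapped over the 2 libraries. The Lpl group thus lay above the Adamts18 cells in both libraries, although the Sox6 groups together were higher by 0.39 ± 0.03 (SD, n = 2; limma adjusted p = 9.46e-08), 2.19-fold and 2.20-fold.

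Eln (chromosome 5, 134702593 to 134747323), the core protein of the fibre, was low in every Sox6 group. Its levels were 0.565 and 1.35 UMIs per 10,000 in Wif1 cells, 0.821 and 1.84 in Adamts18 cells and 2.11 and 2.63 in cells with neither gene. The other groups held 6.35 to 10.5, with the Grem1 group highest at 10.5 and 7.91, and these 4 groups overlapped between neighbours. The natural log difference was -1.19 ± 0.23 (SD, n = 2; limma adjusted p = 1.10e-07), 7.28-fold lower in library 1 and 3.66-fold lower in library 2.

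Mfap4 (chromosome 11, 61485431 to 61488900), a fibrinogen-like protein that binds elastin and fibrillin, was highest in the Fibin type. It held 12.7 and 9.81 UMIs per 10,000 there, 11.1 and 8.59 in the Lpl group and 10.1 and 7.09 in the Grem1 group, which overlapped. The mesothelial-like group was lower, at 4.24 and 2.56, and overlapped with Sox6 cells with neither gene, at 2.68 and 3.15. Wif1 cells (1.18 and 1.87) and Adamts18 cells (0.869 and 1.49) were lowest. Sox6 cells differed by -1.06 ± 0.25 (SD, n = 2; limma adjusted p = 2.45e-07), 6.05-fold and 3.23-fold lower.

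Adamtsl2 (chromosome 2, 27079379 to 27108981) had the lowest level over all cells of each library among the genes that were lower. Its level fell from the Lpl group (0.95 and 1.11 UMIs per 10,000) to the Grem1 group (0.676 and 0.897) and the Fibin type (0.444 and 0.560) without overlap. The mesothelial-like group (0.317 and 0.339) overlapped the cells with neither gene (0.225 and 0.376) and the Wif1 cells (0.143 and 0.319), while the Adamts18 cells (0.193 and 0.212) lay below the mesothelial-like group and the cells with neither gene. The natural log difference of Sox6 from other fibroblasts was -0.20 ± 0.01 (SD, n = 2; limma adjusted p = 4.08e-06), 3.19-fold and 2.40-fold lower.

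Fbln1 (chromosome 15, 85205949 to 85286535), a fibulin of basement membranes and elastic fibres, was abundant in the 4 groups without Sox6. It held 30.6 and 33.1 UMIs per 10,000 in the Grem1 group, 33.4 and 27.9 in the Fibin type and 30.8 and 26.1 in the mesothelial-like group, which overlapped, and 13.9 and 15.5 in the Lpl group. The Sox6 groups differed between the libraries. In library 1 the levels were 0.143 in Wif1 cells, 1.80 in cells with neither gene and 0.290 in Adamts18 cells, and in library 2 they were 2.37, 6.56 and 4.38. Sox6 cells were lower by a natural log difference of -2.44 ± 0.46 (SD, n = 2; limma adjusted p = 3.25e-08), and the fold rested on the library, at 36.6-fold lower in library 1 and 5.79-fold lower in library 2.

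Mgp (chromosome 6, 136872435 to 136875823) followed the same division. It held 40.0 and 50.5 UMIs per 10,000 in the Grem1 group, 36.7 and 44.3 in the mesothelial-like group, 27.6 and 48.3 in the Fibin type and 15.9 and 16.1 in the Lpl group. Sox6 cells held 1.36, 2.32 and 0.097 in library 1 (Wif1 cells, neither gene and Adamts18 cells) and 4.12, 8.05 and 5.59 in library 2. The natural log difference was -2.24 ± 0.21 (SD, n = 2; limma adjusted p = 4.44e-09), 23.8-fold lower in library 1 and 6.72-fold lower in library 2. The Grem1, mesothelial-like and Fibin type groups overlapped between neighbours, and the Lpl group lay apart from them and from every Sox6 group in both libraries.

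The Sox6 cells of library 2 held more Fbln1, Mgp, Eln, Mfap4 and Adamtsl2 where their doublet score was high. Scrublet scores each cell by its likeness to simulated pairs of cells, and the highest scores, 0.8% of cells per 1000 cells of a library, fell on 113 of 817 Wif1 cells, 338 of 1704 cells with neither gene and 33 of 174 Adamts18 cells of library 2, against 3 of 114, 9 of 153 and 0 of 18 in library 1. In library 2 Fbln1 was 10.3, 13.7 and 15.3 UMIs per 10,000 in the high-scoring cells of these groups and 0.803, 4.36 and 0.720 in the rest. These high-scoring cells held more Fbln1 in each of the 3 groups. Mgp was 15.9, 18.1 and 20.3 in the high-scoring cells and 1.81, 4.98 and 0.660 in the rest. The other genes that were lower in Sox6 cells moved the same way. Eln was 3.91, 4.25 and 4.59 in the high-scoring cells and 0.847, 2.14 and 0.917 in the rest. Mfap4 was 4.18, 5.09 and 4.31 against 1.42, 2.56 and 0.548, and Adamtsl2 0.597, 0.608 and 0.615 against 0.265, 0.304 and 0.0771. The 48 immune-like cells of library 2 outside the groups, which should lack both genes, held 2.03 UMIs per 10,000 of Fbln1 and 3.07 of Mgp, and 29.2% of them had a UMI of Fbln1. In the Wif1 and Adamts18 cells without high scores the levels of Fbln1 and Mgp were below those values, and in the cells with neither gene they were above them. All 81 immune-like cells of library 2, those in groups included, held 10.996 UMIs per 10,000 of Fbln1 and 17.94 of Mgp. The cells without high scores lay below these levels in each of the 3 groups, so the comparison rests on which immune-like cells are taken. Whether the Fbln1 and Mgp UMIs of immune-like and Sox6 cells came from free RNA or doublets was not tested. Scores are computed from all genes, these 9 included, so the split is a description.

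Parting the same cells by a Grem1 UMI, a gene of the Grem1 group, gave similar levels. Among library 2 cells with neither Wif1 nor Adamts18, the 337 with a Grem1 UMI held 18.5 UMIs per 10,000 of Fbln1 and 24.0 of Mgp, and the 1367 without one held 3.11 and 3.43. In library 1 the 11 such cells with a Grem1 UMI held 11.1 of Fbln1 and the 142 without one 1.08. In library 2 Eln was 4.84 and 1.99, and Mfap4 4.60 and 2.73. Emid1 went the other way, at 1.74 with a Grem1 UMI and 2.94 without, as did Fbn2 at 0.657 and 1.23. With these cells left out, which was chosen after seeing the data, all 9 genes kept their direction and their call in Sox6 against other fibroblasts, as they did without the highest doublet scores. The part of doublets in the remaining Fbln1 and Mgp of Sox6 cells was not tested.

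**Figure D2:**
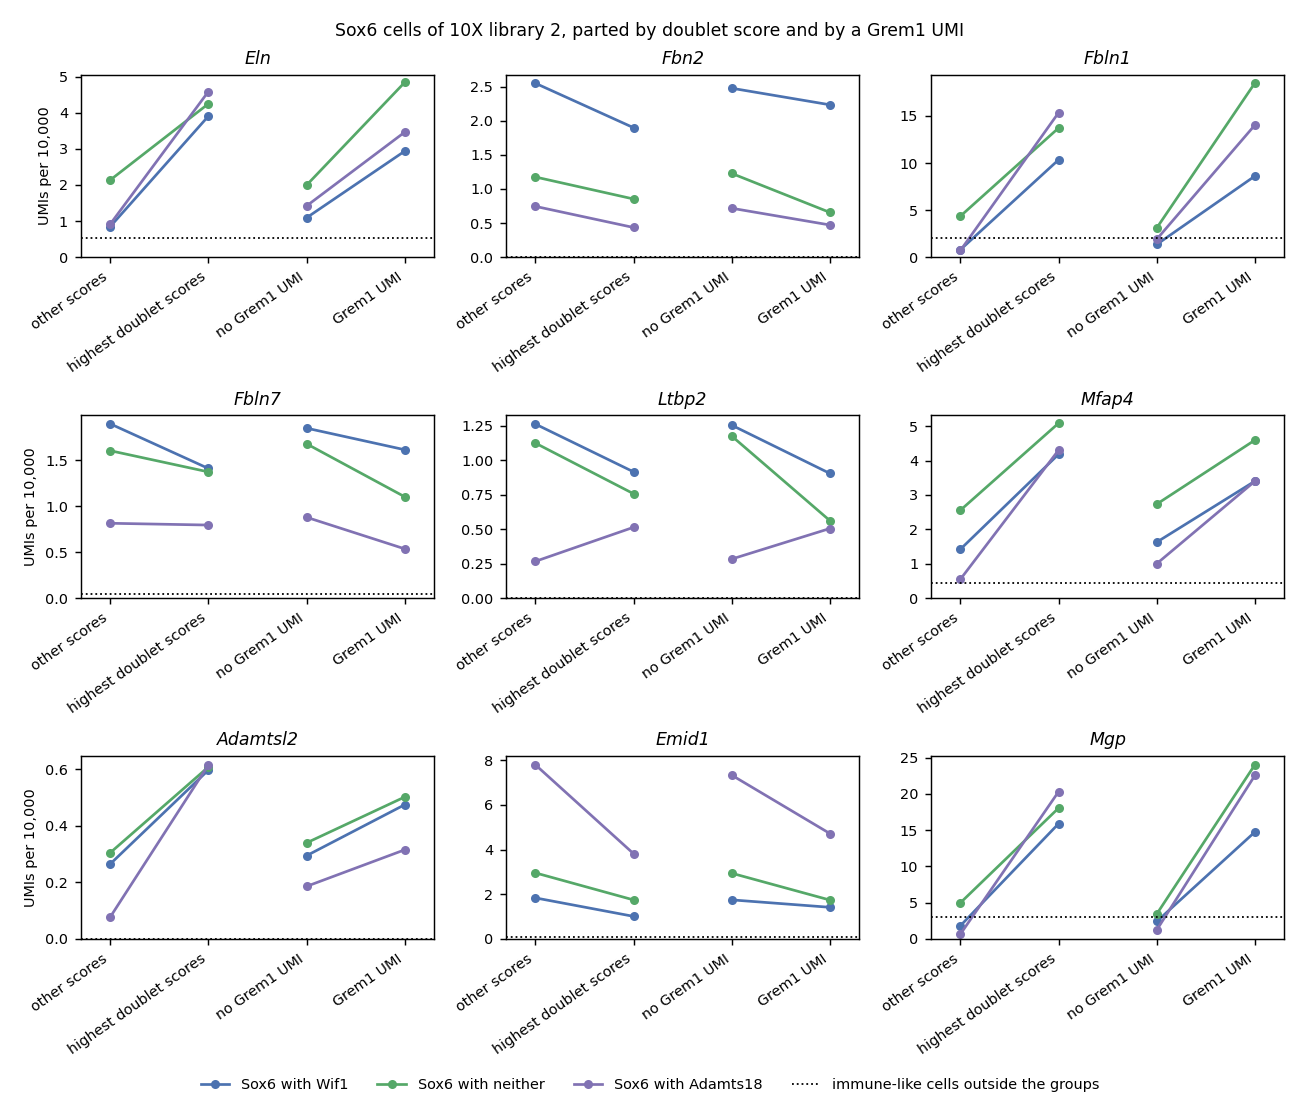
Level of each gene (UMIs per 10,000, linear axes from 0) in Sox6 cells of 10X library 2, parted by high doublet score and, separately, by at least 1 Grem1 UMI. Lines join the parts of the same group and the dotted line is the level in 48 immune-like cells outside the groups. Fbln1 rises from 0.720 to 15.3 in Adamts18 cells with a high score, while Emid1 falls from 7.80 to 3.82.

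Across single Sox6 cells with neither Wif1 nor Adamts18, Fbln1 and Mgp were found together and apart from Emid1. Over 153 cells of library 1 and 1704 of library 2, Pearson's r of the natural log values was 0.81 and 0.74 for Fbln1 and Mgp, and 0.80 and 0.69 with each cell thinned to 2000 UMIs. For Fbln1 and Emid1 r was -0.39 and -0.37, and -0.21 and -0.25 after thinning. In the 611 and 3699 cells of the Lpl group r of Fbln1 and Emid1 was -0.30 and -0.35, and -0.19 and -0.21 after thinning. In the 18 and 174 Adamts18 cells it was -0.17 and -0.42, and 0.0044 and -0.31 after thinning. It was 0.026 and 0.029 in the mesothelial-like group, -0.085 and -0.10 in the Grem1 group, 0.12 and -0.11 in Wif1 cells and -0.16 in the Fibin type of library 2. For Fbln1 and Mgp r was also above 0 in other groups, at 0.73 and 0.57 in the mesothelial-like group, 0.46 and 0.45 in the Lpl group, 0.39 and 0.44 in the Grem1 group and 0.20 and 0.65 in Adamts18 cells. It was -0.0069 and 0.50 in Wif1 cells and -0.20 and 0.21 in the Fibin type. These cells share a library within each value and differ in depth, and r is given as a description.

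Within the Sox6 cells, those with neither Wif1 nor Adamts18 were compared with the Wif1 cells. Fbn2 and Fbln7 were lower and Emid1 was higher in the cells with neither gene. Of all genes tested, 10.0% passed, 59 (3%) higher and 138 (7.01%) lower, and 3 of the 9 genes passed. With log2 of summed UMIs in place of the mean log value the split over all genes turned to 76 higher and 36 lower. A transcript present in a cell can go uncounted, so the cells with neither UMI may express Wif1 or Adamts18.

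Fbn2 showed the largest of these differences, at -0.52 ± 0.05 on the natural log scale (SD, n = 2; lower in 2 of 2 libraries; limma adjusted p = 0.000754), 2.33-fold and 2.22-fold lower. Emid1 was higher by 0.30 ± 0.16 (limma adjusted p = 0.0195), 2.51-fold in library 1 and 1.57-fold in library 2, and Fbln7 was lower by a difference of -0.16 ± 0.03 (limma adjusted p = 0.0364), 1.30-fold and 1.17-fold. Fbn2 passed in 9 of 10 alternative fits, Emid1 in 7 and Fbln7 in 4. The differences of Eln (0.35 ± 0.03; limma adjusted p = 0.128), Mfap4 (0.30 ± 0.08; 0.205) and Fbln1 (0.32 ± 0.15; 0.507) did not pass. Adamtsl2 differed by 0.030 ± 0.020, Ltbp2 by 0.021 ± 0.178 and Mgp by 0.010 ± 0.187, the last with opposite signs in the libraries, as for Ltbp2. The linear levels of Mgp were 1.70-fold and 1.95-fold higher in the cells with neither gene in libraries 1 and 2. Those of Fbln1 were 12.5-fold and 2.77-fold higher.

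The Adamts18 cells were compared with the Sox6 cells that held neither gene. Emid1 was higher, and Ltbp2, Fbln7 and Mfap4 were lower. Of all genes tested, 18% passed, 214 (10.9%) higher and 140 (7.11%) lower (126 and 198 with log2 of summed UMIs, where the median of all genes moved to -0.12), and 4 of the 9 genes passed. Library 1 entered with 18 Adamts18 cells, 5 of them with smooth muscle markers.

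Emid1 was higher by 1.02 ± 0.04 (natural log scale, SD, n = 2; higher in 2 of 2 libraries; limma adjusted p = 6.22e-06), 2.39-fold and 2.55-fold. In 1 of 10 alternative fits, without Sox6 cells that carry markers of another group, the Adamts18 arm was library 2 alone with 13 cells. That fit has no replicate of the arm, so its call is not counted. Emid1 passed in each of the other fits. Ltbp2 differed by -0.34 ± 0.04 (limma adjusted p = 0.00795), 2.63-fold and 3.17-fold lower, and also passed in each of those other fits. Fbln7 differed by -0.27 ± 0.01 (limma adjusted p = 0.00127), 1.87-fold and 1.92-fold lower, and passed in the same fits. Mfap4 differed by -0.47 ± 0.08 (limma adjusted p = 0.0278), 3.08-fold and 2.12-fold lower, but passed in only 5 of 10 alternatives and turned to 0.083 without Sox6 cells that carry markers of another group. That alternative removed 81.5% to 92.5% of the Sox6 cells of each group and library, leaving 3 and 13 Adamts18 cells and 21 and 214 cells with neither gene.

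Fbn2 differed between these cells by -0.031 ± 0.175 with opposite signs in the libraries. Eln (-0.24 ± 0.03; limma adjusted p = 0.227), Mgp (-0.31 ± 0.02; 0.171), Fbln1 (-0.20 ± 0.08; 0.566) and Adamtsl2 (-0.054 ± 0.061; 0.329) did not pass. This comparison and the one with Wif1 cells share the cells with neither gene. Read side by side, the Emid1 levels per 10,000 UMIs stood in the order Adamts18, neither, Wif1 and the Fbn2 levels in the order Wif1, neither, Adamts18 in both libraries.

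**Figure D3:**
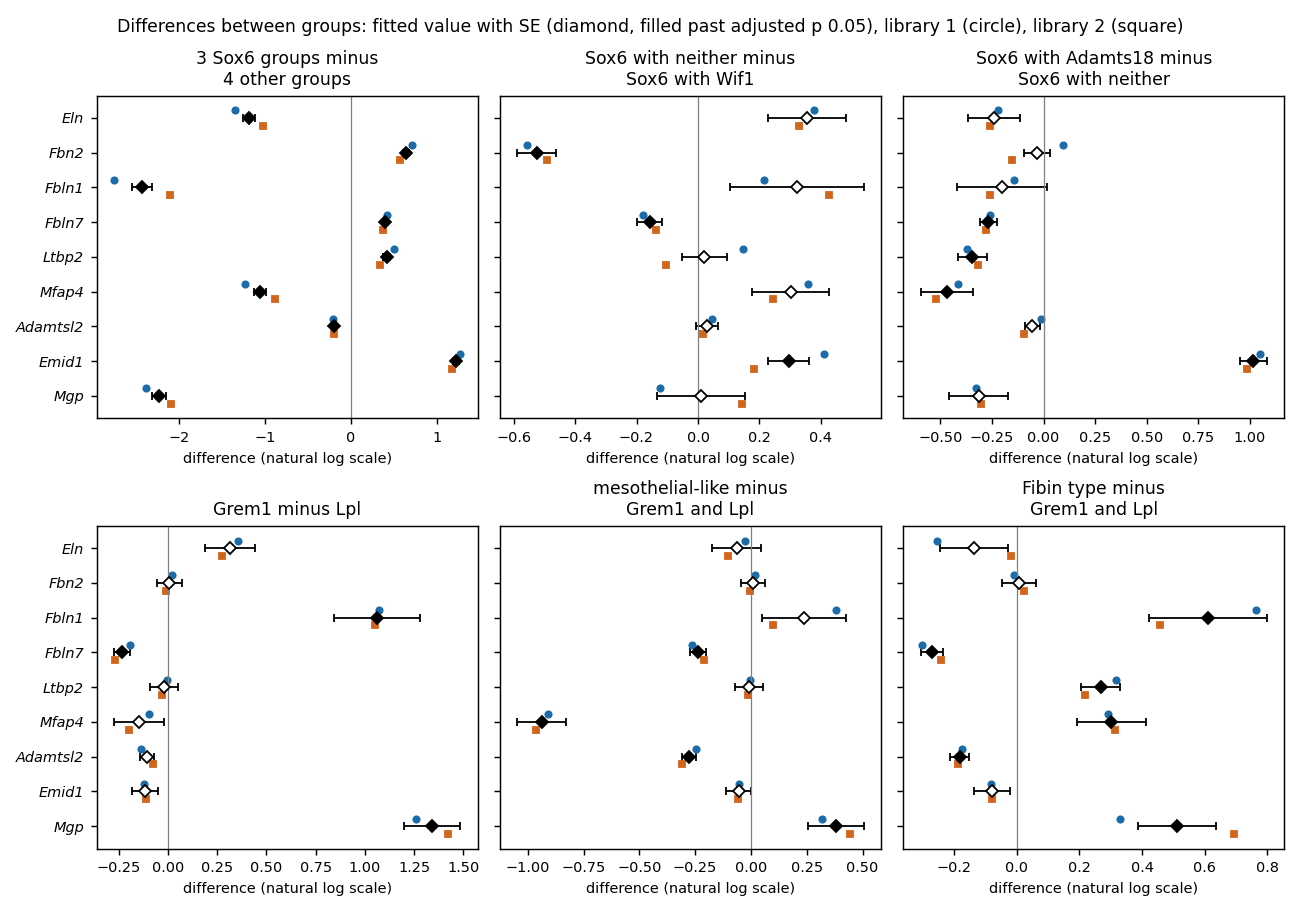
Difference between groups on the natural log scale for each gene in 6 comparisons, each panel with its own axis. Diamonds are limma estimates with their standard error, filled where the adjusted p was under 0.05, circles are library 1 and squares library 2. All 9 genes are filled in the first panel, and Emid1 stands apart at 1.02 in Adamts18 cells against Sox6 cells with neither gene.

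The Grem1 group, which carried the crypt markers, was compared with the Lpl group. Mgp and Fbln1 were higher in the Grem1 group and Fbln7 was lower. Of all genes tested, 17.7% passed, 229 (11.6%) higher and 120 (6.09%) lower (112 and 144 with log2 of summed UMIs), and 3 of the 9 genes passed. Mgp was higher by 1.34 ± 0.12 (natural log scale, SD, n = 2; limma adjusted p = 0.000321), 2.51-fold and 3.13-fold. Fbln1 was higher by 1.06 ± 0.02 (limma adjusted p = 0.00768), 2.20-fold and 2.13-fold. Fbln7 differed by -0.23 ± 0.05 (limma adjusted p = 0.00378), 1.62-fold and 2.14-fold lower. Mgp and Fbln1 did not pass with log2 of summed UMIs, nor Fbln7 after thinning.

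Eln, at 0.31 ± 0.06 (limma adjusted p = 0.132), and Adamtsl2, at -0.11 ± 0.04 (0.0625), did not pass in this comparison. Emid1 had a difference of -0.12 ± 0.01 (0.342), although its linear levels were 9.64-fold and 4.36-fold lower in the Grem1 group. Mfap4, Fbn2 and Ltbp2 differed by -0.15 ± 0.07, 0.0064 ± 0.0201 and -0.019 ± 0.019.

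The mesothelial-like group was compared with the mean of the Grem1 and Lpl groups. Mfap4, Adamtsl2 and Fbln7 were lower and Mgp was higher. Of all genes tested, 27.2% passed, 360 (18.3%) higher and 175 (8.89%) lower (246 and 242 with log2 of summed UMIs), and 4 of the 9 genes passed. Mfap4 differed by -0.94 ± 0.04 (natural log scale, SD, n = 2; limma adjusted p = 0.000127), 2.50-fold and 3.06-fold lower. Adamtsl2 differed by -0.28 ± 0.04 (limma adjusted p = 8.70e-05), 2.56-fold and 2.95-fold lower, and Fbln7 by -0.24 ± 0.04 (limma adjusted p = 0.000611), 2.19-fold and 2.23-fold lower. These 3 passed in 8 of 8 alternatives. Mgp was higher by 0.38 ± 0.09 (limma adjusted p = 0.0458) and passed in 2 of 8. Eln (-0.064 ± 0.056), Fbln1 (0.24 ± 0.20), Emid1 (-0.055 ± 0.002), Fbn2 (0.0082 ± 0.0154) and Ltbp2 (-0.0087 ± 0.0066) did not pass.

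The Fibin type was compared with the same mean. Fbln1, Mgp, Mfap4 and Ltbp2 were higher and Fbln7 and Adamtsl2 were lower. Of all genes tested, 53.8% passed, 522 (26.5%) higher and 538 (27.3%) lower, and 6 of the 9 genes passed. Ltbp2 was higher by 0.27 ± 0.07 (natural log scale, SD, n = 2; limma adjusted p = 0.00407), 57.8-fold in library 1 and 7.71-fold in library 2, where the Grem1 and Lpl groups were near 0. Fbln7 differed by -0.27 ± 0.04 (limma adjusted p = 8.96e-05), 2.89-fold and 2.67-fold lower, and Adamtsl2 by -0.18 ± 0.01 (limma adjusted p = 0.000526), 1.83-fold and 1.79-fold lower.

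Fbln1 was higher in the Fibin type by 0.61 ± 0.22 (limma adjusted p = 0.0192), 1.5-fold and 1.15-fold. Mfap4 was higher by 0.30 ± 0.02 (limma adjusted p = 0.0382), 1.20-fold and 1.25-fold. Mgp was higher by 0.51 ± 0.26 on the log scale (limma adjusted p = 0.00532), but its summed level in library 1 was 27.6 against 27.9 UMIs per 10,000, so the summed level was not higher there. Mgp was found in 100% of Fibin type cells of that library, against 96.0% of the Grem1 group and 72.8% of the Lpl group. Ltbp2, Fbln7 and Adamtsl2 passed in 8 of 8 alternatives, Fbln1 and Mgp in 6 and Mfap4 in 4. Eln (-0.14 ± 0.17), Emid1 (-0.081 ± 0.004) and Fbn2 (0.0059 ± 0.0222) did not pass.

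A list of 68 other genes of elastic fibre assembly, their crosslinking enzymes, TGFβ family ligands and proteases was followed beside the 9. The table held 33 of them and 27 could be tested. In Sox6 cells against other fibroblasts 12 were higher and 12 lower, where 42.1% of all genes were higher and 34.3% lower, with a median natural log difference of -0.028 beside 0.013 over all genes. Ogn, a small leucine-rich proteoglycan, was higher by 1.83 ± 0.31 (SD, n = 2; limma adjusted p = 3.25e-08) and Bmp7, a BMP ligand, by 1.35 ± 0.14 (2.55e-09). Fbln5, a fibulin needed for elastic fibre assembly, was higher by 0.77 ± 0.17 (2.53e-06), while Fbln2 was lower at -0.98 ± 0.04 (1.05e-07). Fbln5 held 5.48 and 5.99 UMIs per 10,000 in Wif1 cells, 3.67 and 2.52 in Adamts18 cells, 3.25 and 3.82 in the Lpl group and 1.30 and 1.60 in the Grem1 group, so that the Lpl group overlapped the Adamts18 cells. Fbln2 held 0.543 and 0.871 in Wif1 cells, 0.960 and 1.99 in the Fibin type and 4.22 and 4.09 in the Grem1 group.

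Against Wif1 cells, the Sox6 cells with neither gene had 0 of the 27 genes higher and 2 lower by limma at an adjusted p of 0.05, where 10.0% of all genes passed. At an unadjusted p of 0.05, 3 genes were higher (Timp3, Lox and Hmcn1) and 5 lower (Bmp7, Efemp1, Cst3, Bmp2 and Fbn1), where 400 of the 1969 genes passed in either direction. The median natural log difference was 0.0058. Those lower at the adjusted p were Bmp7 at -0.51 ± 0.16 (limma adjusted p = 0.00261) and Efemp1, also known as fibulin-3, at -0.43 ± 0.06 (0.0119). Adamts18 cells against cells with neither gene had 2 higher and 3 lower of 27, where 18% of all genes passed, with a median difference of -0.055. Bmp2 was higher by 0.64 ± 0.37 (limma adjusted p = 0.00530) and Bmp7 by 0.36 ± 0.11 (0.00898). Hmcn1, a hemicentin of the fibulin family, differed by -0.24 ± 0.0017 (0.0193) and Lox, lysyl oxidase, by -0.15 ± 0.06 (0.0493).

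Among the other fibroblasts, the Grem1 group had 7 of the 27 genes higher and 5 lower than the Lpl group, where 17.7% of all genes passed. Ogn was higher by 0.90 ± 0.17 (limma adjusted p = 0.00420), while Hmcn1 differed by -0.60 ± 0.06 (0.000307), Fbln5 by -0.55 ± 0.01 (0.0121) and Efemp1 by -0.52 ± 0.03 (0.00339). The mesothelial-like group had 10 higher and 6 lower, where 27.2% of all genes passed. There Mfap5, a microfibril-associated glycoprotein, was higher by 0.63 ± 0.05 (limma adjusted p = 7.52e-05), Ogn by 1.46 ± 0.06 (3.79e-05) and Gdf10 by 0.43 ± 0.02 (0.000283), and Hmcn1 differed by -0.66 ± 0.06 (1.14e-05). The Fibin type had 5 higher and 14 lower, where 53.8% of all genes passed. Gdf10, a TGFβ family ligand, was higher by 1.26 ± 0.20 (limma adjusted p = 4.20e-08), Emilin1, an elastic fibre glycoprotein, by 0.87 ± 0.05 (1.83e-06) and Cst3, an inhibitor of cysteine proteases, by 0.85 ± 0.17 (1.67e-05), and Fbln2 differed by -0.99 ± 0.28 (6.94e-06). Median differences over the 27 genes were -0.0036, 0.012 and -0.14 in these 3 comparisons, beside -0.0026, -0.00031 and -0.0012 over all genes.

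For each of the 9 genes the most similar profiles among the other genes of the table, the 9 left out, were sought over 14 points, 7 groups in 2 libraries. Emid1 was most like Dusp10 and Ednrb, both with a Pearson's r of 0.99, and Fbn2 like Bmp3 (0.99) and Gadd45a (0.98). Fbln1 and Mgp were both most like Svep1 in this search, at 0.97 and 0.99, and had an r of 0.98 with each other. Eln was most like Matn2 (0.98), Mfap4 like Tgfb2 (0.97), Fbln7 like Adcy5 (0.98), Ltbp2 like Kcnj8 (0.95) and Adamtsl2 like Frzb (0.95). The points come from 2 libraries and groups are few, so these values describe likeness alone. Fbn2 and Emid1, both high in Sox6 cells, had an r of 0.58.

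The Smartseq2 plates gave the same directions for all 9 genes. Their values are on a natural log scale and had been corrected when the platforms were joined, 25.1% and 26.1% of them lying below 0, so they are not independent of the 10X cells and are given without a test. Cells were called Sox6 cells at a corrected Sox6 value above 0.5, a threshold chosen after seeing the values, which left 11 of 739 cells within 0.25 of it. Plates 1 and 2 held 35 and 58 such cells and 325 and 321 others. Mean corrected values in Sox6 cells against the others were 0.92 against 0.06 and 1.19 against 0.18 for Emid1, 0.77 against 0.03 and 0.96 against 0.05 for Fbn2, and 0.71 against 0.01 and 0.58 against 0.03 for Ltbp2. Fbln7 was 0.80 against 0.24 and 0.95 against 0.37.

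The genes that were lower in the 10X libraries were lower on both plates. Fbln1 stood at 0.28 against 2.09 and 0.63 against 3.07, Mgp at 0.60 against 2.23 and 0.70 against 3.02 and Eln at 0.53 against 1.33 and 0.58 against 1.88. Mfap4 was 0.72 against 1.05 and 0.82 against 1.71, and Adamtsl2 0.13 against 0.32 and 0.13 against 0.44.

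**Figure D4:**
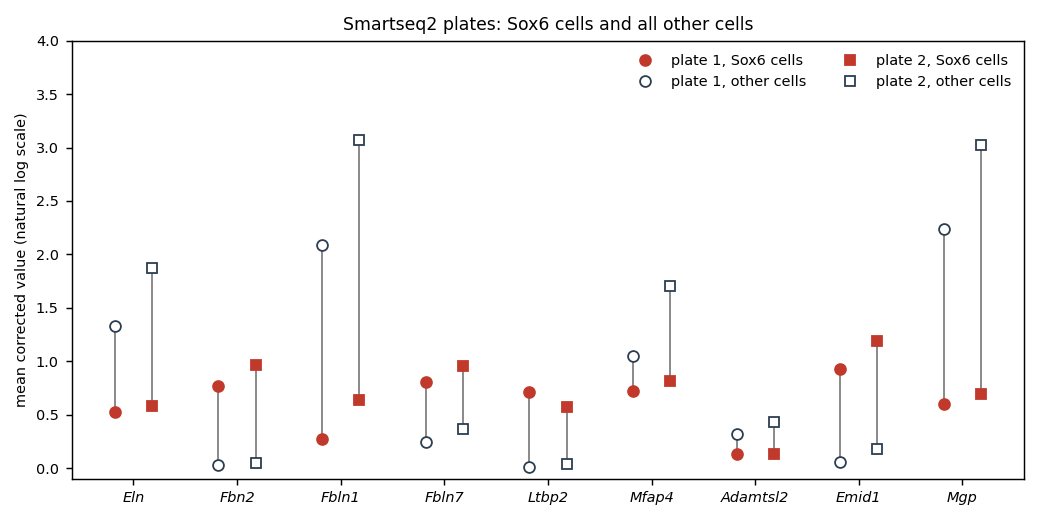
Mean corrected value (natural log scale) of each gene in Sox6 cells (filled) and all other cells (open) of the Smartseq2 plates. Circles are plate 1 and squares plate 2, and a line joins the means of the same plate. The filled symbols lie above the open ones for Fbn2, Fbln7, Ltbp2 and Emid1 and below them for the other 5 genes on both plates.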

How the data were processed

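Single-cell RNA was measured in 4 libraries of small intestinal fibroblasts. Per the study's methods and notes, the authors used Cell Ranger 3.1.0 (10X) or TopHat2 2.1.1 and featureCounts (Smartseq2) on GRCm38, and Seurat joined the platforms. The deposited table holds natural log values. In 10X columns these were ln(1 + UMIs per 10,000), from which whole UMIs were recovered for 100% of values above 0 (tolerance 0.01). The table holds 23.6% and 22.6% of the UMIs of libraries 1 and 2, and 1 incomplete gene row was left out. Per the study's methods, the platforms were joined on the most variable genes, and whether the table holds only these is not stated. Shares over all genes tested are shares of this table, not of all mouse genes. Smartseq2 columns held corrected natural log values.

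Cells are not replicates, so means per library and group (at least 10 cells) were tested with limma 3.58.1 (R 4.3.3), library as a block because each library gave every group, with a mean trend and Benjamini-Hochberg adjustment over 1969 genes found in at least 5% of cells of a group, without the 13 grouping genes. The fit was tested on simulated data, where the share of false calls lay above the threshold for Sox6 against other fibroblasts, the Fibin type and Grem1 against Lpl, so adjusted p-values there may be too small. The libraries are not stated to come from separate mice. With the library as a block, p-values rest on how far groups disagree between libraries, pooled over the 7 groups and moderated over genes. That spread may be technical, and it is not the SD printed beside each difference. Intervals are exact binomial. All 9 genes, the grouping and the lists were chosen with earlier results of these data known. Other elastic fibre genes were named where called with the same sign in both libraries, at most 4 per comparison. No doublets were removed in the main fit (Scanpy 1.11.5 for Scrublet). Alternatives were log2 of summed UMIs (pseudocount 0.1), no filter, thinning to 2000 UMIs, at least 2 UMIs of a grouping gene, no mean trend, no block, and leaving out a library, high doublet scores, Sox6 cells with markers of another group or a Grem1 UMI, and cells with 3 markers of another type.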

Additional observations from a re-analysis of the deposited data

How the results depend on the processing

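Of 54 results (9 genes in 6 comparisons), 29 passed, and 17 of these passed in every alternative with a test. These included all 9 genes in Sox6 against other fibroblasts, and the other 12 were lost in at least 1. For Adamts18 against neither, the counts include the fit whose Adamts18 cells came from library 2 alone. Each library was also taken alone, as values without a test, and no called difference changed sign. Thinning to 2000 UMIs, where 1298 genes in place of 1969 were tested, called 975 for Sox6 against other fibroblasts, 92 for Sox6 cells with neither gene against Wif1 cells, 203 for Adamts18 cells against cells with neither gene, 210 for the Grem1 against the Lpl group, 308 for the mesothelial-like group and 673 for the Fibin type. Log2 of summed UMIs gave 112 for neither against Wif1. Leaving out Sox6 cells with markers of another group gave 333 for neither against Wif1 and 615 for Adamts18 against neither, where only library 2 had at least 10 Adamts18 cells. The causes were not tested. The number of the 9 genes found in a larger share of Sox6 cells than of other fibroblasts in both libraries, 4, was the same after thinning.

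The library block pairs groups by their source, since each library gave every group. With no replicate block 1438, 148, 271, 267, 463 and 991 genes passed in the order above, and 5 gene results were lost: Fbln7 between neither and Wif1, Mfap4 between Adamts18 and neither, Mgp in the mesothelial-like group, and Mfap4 and Mgp in the Fibin type.

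Differences that changed sign had not passed, apart from Mfap4. They are on the natural log scale unless stated. Without Sox6 cells with markers of another group, neither against Wif1 gave Ltbp2 -0.067, Mfap4 -0.14, Adamtsl2 -0.017 and Mgp -0.043, and Adamts18 against neither gave Eln 0.39, Fbln1 0.15, Mfap4 0.083 and Mgp 0.32. Mgp between neither and Wif1 was -0.21 with at least 2 UMIs of a grouping gene, -0.046 without the highest doublet scores and -0.17 without Sox6 cells with a Grem1 UMI (the last chosen after seeing the data). Thinning turned Adamtsl2 in that comparison to -0.0072, Fbn2 between Adamts18 and neither to 0.032, and Fbn2 in the Grem1 against the Lpl group and in the mesothelial-like group to -0.00037 and -0.00051. At least 2 UMIs gave Fbln1 0.00096 between Adamts18 and neither, and Fbn2 -0.0015, -0.0011 and -0.0036 in the Grem1, mesothelial-like and Fibin type comparisons. Log2 of summed UMIs gave Eln 0.027, on the log2 scale, in the mesothelial-like group. The 18 Adamts18 cells of library 1 limit every comparison they enter.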
